A study of Homo sapiens with 6 samples.

Results

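The members described here are 9 genes of extracellular proteolysis, measured in A549, an established cell line from a human lung adenocarcinoma. They are the plasminogen activators PLAU and PLAT, the receptor PLAUR, the serpin SERPINE2, the metalloproteases MMP1, MMP2 and MMP14 and the inhibitors TIMP1 and TIMP2, chosen by gene symbol, and make up 9 of the 18244 genes tested. Every probe set that the platform annotation gives to exactly 1 of these symbols was used, 36 in all. The 2 groups compared hold 3 samples each, with 1 Affymetrix array per sample: cells that received lentivirus with a short hairpin against MRPL35 (KD) and cells that received lentivirus with a control hairpin (NC). Both groups carry a lentivirus and were grown in RPMI-1640 with serum. MRPL35 is a large-subunit protein of the ribosome inside mitochondria, and the comparison addresses what its knockdown does to the growth and survival of lung cancer cells. The labels name no second hairpin and no separate cultures, so the p-values rest on the spread among these samples alone, and that spread may be technical.

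Plasminogen activators cut the circulating zymogen plasminogen into plasmin, a broad serine protease that degrades fibrin and matrix and can activate metalloprotease zymogens. The urokinase-type activator works mainly at the cell surface, held by its receptor, and serpins trap the active enzyme in a covalent complex. Matrix metalloproteases cut collagens, laminins and other matrix proteins, and the TIMP proteins bind their active site. These systems are known for their part in tumour cell invasion and in wound repair of the lung.

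In the knockdown cells the urokinase branch and the inhibitors read higher, while none of the 3 metalloproteases passed the test. PLAU was 2.19-fold higher in KD, and PLAUR, SERPINE2, TIMP1 and TIMP2 were each 1.33-fold to 1.36-fold higher by the probe set with the highest mean signal. Except for PLAU, these chosen probe sets carry a suffix (x or s) that marks them as able to hybridise to more than 1 transcript. With such probe sets left out the log2 rises were 0.64 for PLAUR, 0.49 for SERPINE2, 0.44 for TIMP1 and 1.34 for TIMP2. In the fit over all genes 5 of the 9 members were higher and 0 lower in KD at an adjusted p under 0.05 (limma, Benjamini-Hochberg), where 17.6% of all genes tested were higher and 15.9% lower. At least a 2-fold rise was called by the chosen probe set for 1 member, PLAU, against 2.27% of all genes, and such a fall for 0, against 3.09%. The other TIMP2 probe set rose 2.53-fold, more than any PLAU probe set. The median change of the 9 members was 0.41 on the log2 scale, against -0.018 over all genes. At the level of probe sets, 18 of the 36 were higher in KD and 0 lower, against 16.5% and 14.1% of the 49293 probe sets tested. On 25 of the 36 all KD arrays lay above all NC arrays, a state found for 22.5% of all probe sets, and on 0 of the 36 all lay below, against 20% of all. The members were chosen with earlier results of these data known, so these shares describe the list and do not test it. Probe sets of the same gene are also not independent.

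Called and uncalled probe sets differed in signal level. Of the 17 member probe sets with a mean at or above 6.21, the median of the gene means on the log2 scale, 17 were called higher in KD, where 27.6% of all probe sets at such levels were. Of the 19 below that level 1 was called, against 8.96% of all dim ones. The 17 belong to the 5 members called higher, and probe sets of the same gene are not independent. This split was made after the values were seen. No scanner file was used here, background is therefore unknown for each probe set, and dim values may hold little specific signal.

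**Figure D1:**
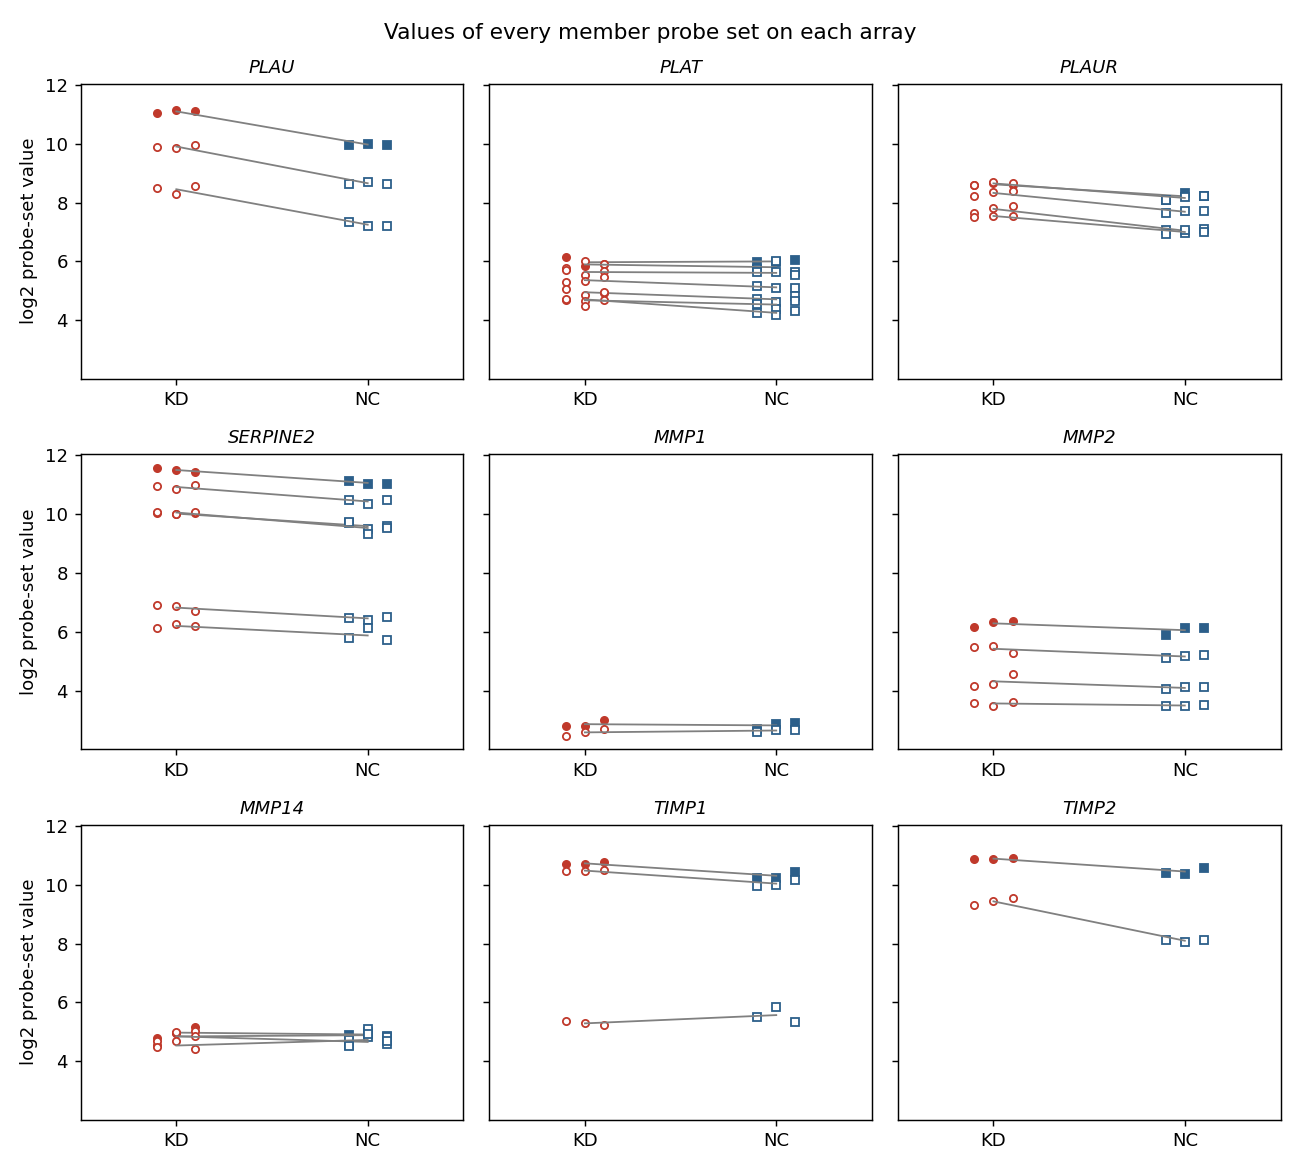
Log2 probe-set values of the 9 members, with KD arrays (circles) left of NC arrays (squares) in each panel, replicates 1 to 3 from left to right, and a line joining the group means of each probe set. Filled symbols mark the probe set with the highest mean, used for the gene; PLAU slopes most steeply among these, and both MMP1 probe sets lie below 3.

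The target checked the labels. MRPL35 read 6.49, 6.44 and 6.56 on the KD arrays and 8.16, 8.05 and 8.36 on the NC arrays (replicates 1 to 3, as for all values below), a fall of 1.69 on the log2 scale (SE 0.096, limma adjusted p = 3.77e-06). Of the variance, 79.0% lay on a principal component that divided the groups, and 11.8% on another that set NC replicate 2 apart; without that array 5 members were higher and 0 lower, as with it. A549 and lung adenocarcinoma markers averaged 11.85 on each KD array and 11.41 to 11.50 on the NC arrays, with 11 of 12 above the median gene. In KD 6 of the 12 were higher (50%, against 17.6% of all genes). These were CDH1 (1.31), AKR1C1 (1.13), TXNRD1 (0.51), KRT18 (0.50), KRT8 (0.44) and ALDH1A1 (0.34). FOXA2 was the 1 lower (-0.41, limma adjusted p = 0.0167), or 8.33% against 15.9% of all genes. EPCAM was dim, at the 47.1 percentile, and not called. The part of these markers in the results below was not tested. Fibroblast markers, of interest because fibroblasts secrete MMP1, MMP2 and the TIMP proteins, averaged 3.92 to 3.99 in KD and 3.90 to 4.13 in NC, with 0 of 10 above the median gene. They lay between the 1.26 percentile of gene means (LUM) and the 44.1 percentile (PDGFRB); THY1, at the 38.8 percentile, was higher in KD (0.52, limma adjusted p = 0.00808) and PDGFRA, at the 29.8 percentile, lower (-0.37, limma adjusted p = 0.0457). Their part in the results was not tested. Endothelial markers averaged 5.01 to 5.04 in KD and 4.96 to 5.16 in NC. Macrophage and leukocyte markers averaged 4.20 to 4.25 in KD and 4.10 to 4.36 in NC. Each list had 1 gene higher and 1 lower, 12.5% each way for the former and 10% for the latter. These shares were below those of all genes. Array signal cannot tell a change in RNA per cell from a change in the mixture of cells.

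The activator PLAU, urokinase, showed the largest change among the members by the probe set chosen for each gene. Its probe set of highest signal read 11.04, 11.15 and 11.12 in KD and 9.96, 9.99 and 9.96 in NC (log2). The groups lay more than 1 log2 unit apart, and the arrays within a group differed by little: the SD was 0.056 in KD and 0.013 in NC (n = 3 each). The difference was 1.13 (95% confidence interval 0.96 to 1.30, limma adjusted p = 8.30e-06), the 276th largest rise among the 18244 genes. A second PLAU probe set read 9.89, 9.86 and 9.97 in KD and 8.64, 8.71 and 8.62 in NC, and the last 8.51, 8.28 and 8.56 in KD and 7.33, 7.20 and 7.21 in NC. All 3 therefore rose, by 1.13 to 1.25 on the log2 scale, with no overlap between groups. The genes whose centred values lay closest to those of PLAU over the 6 arrays were ERO1B (Euclidean distance 0.086), LAMTOR4 (0.096) and SAT2 (0.10), which changed by 1.16, 1.07 and 1.07 on the log2 scale. Such a distance picks genes with a change of like size and little spread within groups, so it shows no link to PLAU beyond that. ERO1B was dim, at 5.83, 5.84 and 5.82 in KD and 4.65, 4.70 and 4.65 in NC.

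PLAT, the tissue-type activator best known for dissolving fibrin clots, was dim on all of its 7 probe sets, with means of 4.48 to 5.98. The brightest read 6.15, 5.83 and 5.92 in KD and 5.97, 5.99 and 6.03 in NC, and the KD arrays spanned the NC arrays. Its difference of -0.029 had a 95% confidence interval of -0.25 to 0.19 (limma adjusted p = 0.868). Of the other PLAT probe sets the one with the lowest mean was called, at 4.70, 4.47 and 4.94 in KD and 4.24, 4.18 and 4.32 in NC, a difference of 0.46 (limma adjusted p = 0.0181 over all probe sets). That call was lost without KD replicate 1 (adjusted p = 0.0532), KD replicate 3 (0.0677) or NC replicate 1 (0.0534). The remaining 6 differed by -0.029 to 0.24 and did not pass, although on 4 of the 7 all KD arrays lay above all NC arrays. The one at 0.24 passed with array weights, which give less weight to arrays that vary more (adjusted p = 0.0395), and with dim probe sets left out (0.0337). The mean over all 7 changed by 0.17 (adjusted p = 0.0883).

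PLAUR, the membrane-anchored receptor that holds urokinase at the cell surface, was higher in KD on all 5 probe sets. The chosen one read 8.59, 8.67 and 8.60 in KD and 8.10, 8.31 and 8.22 in NC. It gave the smallest difference of the 5, 0.41 (SE 0.084, limma adjusted p = 0.00461). The largest, 0.74, came from a probe set that read 7.66, 7.82 and 7.88 in KD and 7.07, 6.97 and 7.09 in NC (limma adjusted p = 0.000274 over all probe sets). No PLAUR probe set overlapped between groups, and the estimate for the gene lay between 0.35 and 0.64 over all alternatives tried, the upper value with cross-hybridising probe sets left out.

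**Figure D2:**
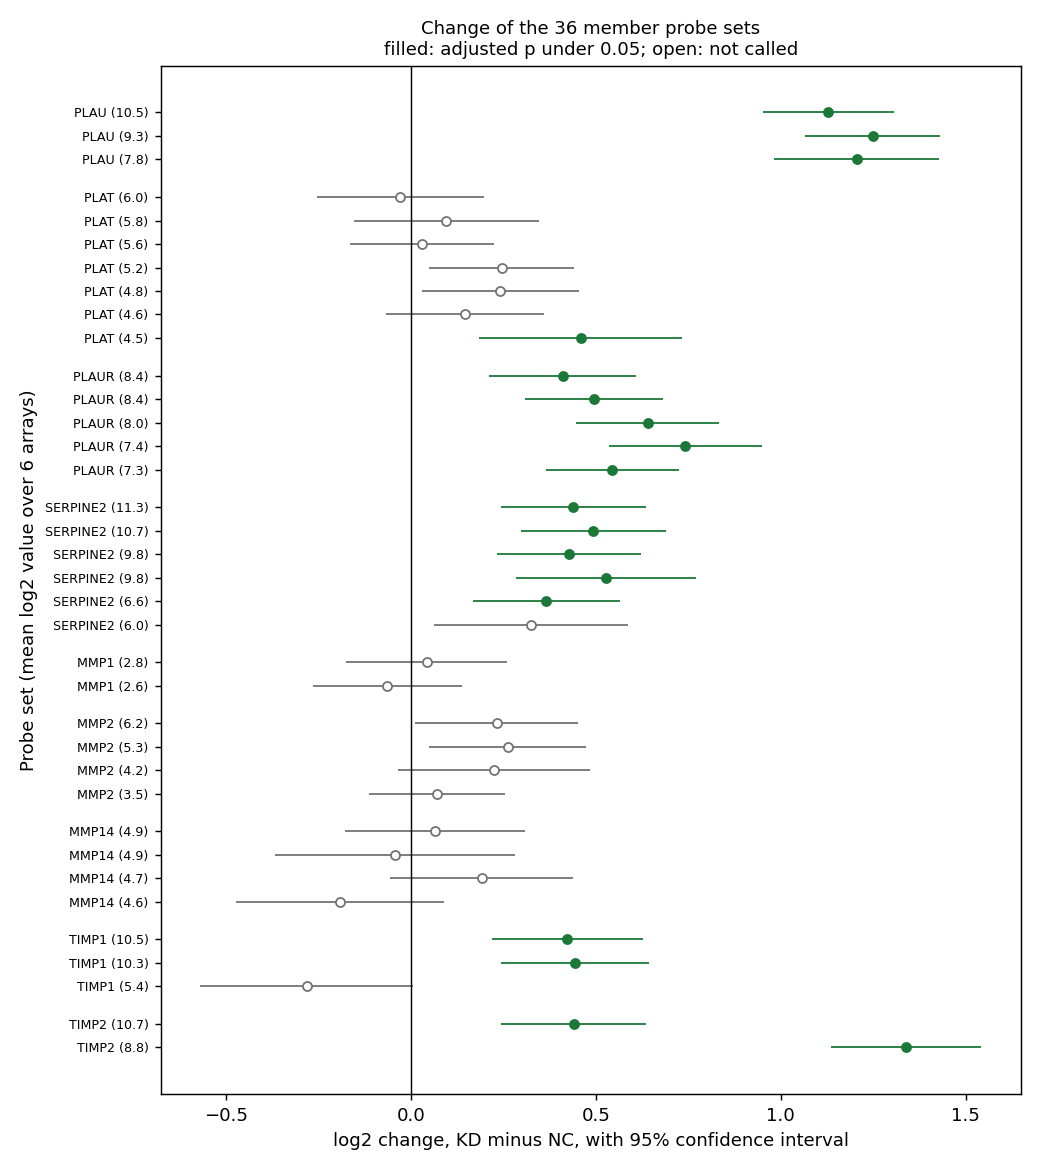
Log2 change (KD minus NC) of the 36 member probe sets with 95% confidence intervals from limma, ordered by gene and by mean log2 value (in parentheses). The 18 filled points were called higher in KD, and the open ones, mostly dim, were not called.

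SERPINE2, protease nexin-1, a cell-associated serpin that inhibits thrombin, urokinase and tissue-type activator, was likewise higher. The chosen probe set read 11.59, 11.50 and 11.43 in KD and 11.15, 11.01 and 11.04 in NC, a difference of 0.44 (SE 0.083, limma adjusted p = 0.00292). All KD arrays lay above all NC arrays on each of its 6 probe sets, and the differences ran from 0.32 to 0.53. Of these, 5 were called; the dimmest read 6.15, 6.27 and 6.19 in KD and 5.77, 6.13 and 5.72 in NC (limma adjusted p = 0.0647), and passed without NC replicate 2 (0.00299), with array weights (0.00547) and with dim probe sets left out (0.0422).

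The metalloprotease genes gave low signals. MMP1, interstitial collagenase, which opens the triple helix of fibrillar collagen, read 2.79, 2.80 and 2.99 in KD and 2.70, 2.85 and 2.90 in NC, near the lowest value in the table, 2.05. The groups overlapped on both of its probe sets, and the difference of 0.042 had a 95% confidence interval of -0.17 to 0.25 (limma adjusted p = 0.792). MMP14, the membrane-type metalloprotease that activates pro-MMP2, read 4.78, 4.96 and 5.16 in KD and 4.88, 4.98 and 4.85 in NC. Its 4 probe sets overlapped between groups and differed by -0.19 to 0.19, and the chosen one by 0.064 (95% confidence interval -0.18 to 0.30, limma adjusted p = 0.717).

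MMP2, gelatinase A, which degrades basement membrane collagen, was the one metalloprotease whose chosen probe set separated the groups. It read 6.18, 6.33 and 6.35 in KD and 5.91, 6.14 and 6.12 in NC. The difference of 0.23 (95% confidence interval 0.017 to 0.45) did not pass (limma adjusted p = 0.0972). All KD arrays lay above all NC arrays on 3 of its 4 probe sets, with differences of 0.22 to 0.26, and the dimmest changed by 0.071. With array weights MMP2 was called, at 0.30 (adjusted p = 0.0199). Its second brightest probe set, at 0.26 (adjusted p = 0.0646 over all probe sets), passed with dim probe sets left out (0.0374) and, at 0.34, without KD replicate 3 (0.0416).

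TIMP1, a secreted inhibitor of most metalloproteases that also acts as a growth factor, read 10.70, 10.70 and 10.79 in KD and 10.23, 10.25 and 10.44 in NC. It was higher by 0.42 (SE 0.087, limma adjusted p = 0.00482), and a second bright probe set by 0.44. The remaining, dim one went the other way without passing, at 5.35, 5.28 and 5.22 in KD and 5.51, 5.85 and 5.34 in NC (-0.28, limma adjusted p = 0.139 over all probe sets). Without NC replicate 3 this dim probe set was called lower, at -0.39 (adjusted p = 0.0488). Averaging the 3 probe sets lowered the estimate to 0.19, and the call was lost (adjusted p = 0.0521).

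TIMP2, which inhibits metalloproteases and also bridges pro-MMP2 to MMP14 at the cell surface, had 2 probe sets that both rose but by unequal amounts. The chosen one, whose suffix marks it as able to hybridise to more than 1 transcript, read 10.87, 10.88 and 10.92 in KD and 10.41, 10.37 and 10.57 in NC, a rise of 0.44 (SE 0.083, limma adjusted p = 0.00292). The other read 9.31, 9.44 and 9.55 in KD and 8.11, 8.06 and 8.11 in NC. It rose by 1.34, or 2.53-fold (limma adjusted p = 9.28e-06 over all probe sets), the largest change of the 36. Within an array the second stood higher against the first by 0.90 in KD than in NC (1.87-fold), with no overlap between groups. The exact permutation p of this difference, looked at after the values were seen, was 0.1, the smallest that 3 arrays against 3 allow.

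Enzymes were also set against their inhibitors, receptor or activator. For 8 pairs of members the log2 difference within each array was compared between the groups, which shows unequal change and not the ratio of the proteins. The estimate for PLAU was 0.69 above that for its inhibitor SERPINE2: relative to the NC mean the differences were 0.54, 0.74 and 0.78 in KD and -0.089, 0.069 and 0.020 in NC. It was also 0.72 above that for its receptor PLAUR, a difference that was 0.63 with the mean of probe sets and 0.49 with cross-hybridising ones left out. The PLAU estimate was 1.16 above that for PLAT. PLAT minus SERPINE2 gave -0.37, -0.60 and -0.44 in KD and -0.11, 0.047 and 0.064 in NC, a difference of -0.47, which was -0.26 with the mean of probe sets. PLAT was dim and not shown to be above background, so both differences that involve it are given as values only.

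MMP2 minus TIMP2 gave a difference of -0.21 between KD and NC by the chosen probe sets. MMP2 was dim (mean 6.17) and not shown to be above background, so this difference too is given as a value only. The size of this difference depended on the array and the probe set. It was -0.13 without NC replicate 2 and -0.69 with the mean of probe sets. With cross-hybridising probe sets left out it was -1.08, and that setting puts another probe set in place for both MMP2 and TIMP2. In these 5 pairs the KD and NC arrays did not overlap, and each had an exact two-sided permutation p of 0.1, the smallest possible (0.114 after Benjamini-Hochberg adjustment over the 8 pairs). MMP1 and MMP14 were not shown to be above background, so the 3 pairs that hold them say nothing of these enzymes and are not read here.

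**Figure D3:**
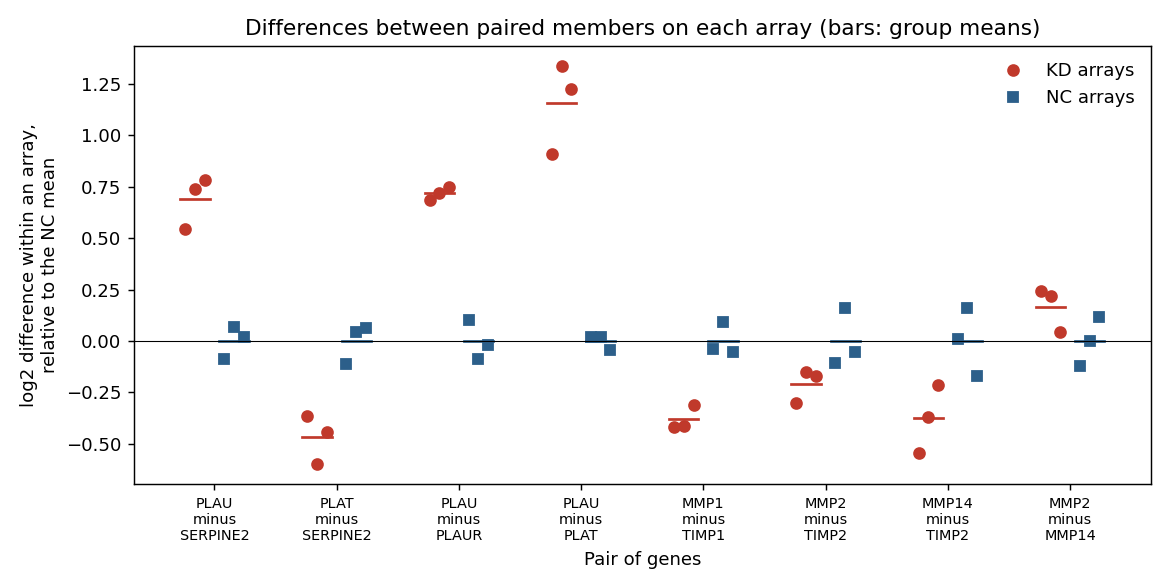
Log2 difference between the 2 genes of a pair within each array, set to 0 at the NC mean, for 3 KD arrays (circles) and 3 NC arrays (squares), with bars at the group means. The 4 pairs of PLAU and PLAT and the pair of MMP2 and TIMP2 do not overlap between groups. Neither do MMP1 minus TIMP1 and MMP14 minus TIMP2, which are not read here, while MMP2 minus MMP14 overlaps. Pairs with PLAT, MMP1, MMP2 or MMP14 hold a gene not shown to be above background.

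Promoter sequence was at hand for 5 of the 9 members, from RefSeq (GRCh38.p14). These windows run from 250 bases before to 50 after an annotated start, and the 5 members have 7 of them. The 250 bases before the start are printed 5′ to 3′ on the gene's strand for the 4 of these members that rose, so that they can be compared. Each has 1 window below, the one with most matches. Capitals mark the AP-1 site (TGACTCA or TGAGTCA) and the GC box (GGGCGG, or CCGCCC on the other strand).
PLAU, chr10:73910882-73911131 (+): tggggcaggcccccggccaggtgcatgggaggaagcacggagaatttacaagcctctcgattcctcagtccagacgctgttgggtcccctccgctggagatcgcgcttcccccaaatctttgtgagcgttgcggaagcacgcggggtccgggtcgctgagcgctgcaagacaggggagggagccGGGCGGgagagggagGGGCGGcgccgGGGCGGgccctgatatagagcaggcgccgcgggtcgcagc
PLAUR, chr19:43670170-43670419 (-): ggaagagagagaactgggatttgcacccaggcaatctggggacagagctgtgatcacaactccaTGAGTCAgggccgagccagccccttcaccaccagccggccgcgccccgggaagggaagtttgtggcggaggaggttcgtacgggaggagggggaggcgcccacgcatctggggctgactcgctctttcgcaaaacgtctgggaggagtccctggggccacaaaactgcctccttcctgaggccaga
SERPINE2, chr2:224038641-224038890 (-): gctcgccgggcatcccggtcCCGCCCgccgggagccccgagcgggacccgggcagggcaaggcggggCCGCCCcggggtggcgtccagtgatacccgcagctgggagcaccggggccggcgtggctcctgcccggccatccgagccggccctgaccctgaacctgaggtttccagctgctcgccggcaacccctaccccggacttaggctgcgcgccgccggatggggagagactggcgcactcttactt
TIMP1, chrX:47582186-47582435 (+): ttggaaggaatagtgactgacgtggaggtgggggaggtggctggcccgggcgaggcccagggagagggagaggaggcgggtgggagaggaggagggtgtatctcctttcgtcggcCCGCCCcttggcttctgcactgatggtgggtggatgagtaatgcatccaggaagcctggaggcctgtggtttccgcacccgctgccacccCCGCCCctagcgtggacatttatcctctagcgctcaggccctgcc

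The 4 rising members did not share 1 pattern of these letters. The PLAUR window held TGAGTCA with its first base 186 bases before the start, and no GC box, while 4.95% of the 35116 windows in the table held an AP-1 site. PLAU held 3 GC boxes, at 66, 51 and 40 bases before this start, and 0 in the window of its other start. SERPINE2 and TIMP1 held 2 GC boxes each in the windows shown. A GC box was found in 45% of all windows, and also in that of MMP14, which was not called. The TATA box (TATAAA, gene strand only), held by 7.33% of windows, was found in 0 of the 7. A match is a description of the letters and not of binding.

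Other genes of plasminogen activation moved both ways. Of 23 measured, 8 (34.8%) were higher and 2 (8.70%) lower in KD and 13 were not called, against 17.6% higher and 15.9% lower over all genes, the shares to set beside every list below. The median change was 0.13 (all genes -0.018). The lists also differed in signal level, which the shares called do not take into account. At or above the median gene lay 13 of these 23 genes, 6 of 19 other metalloproteases and 7 of 13 other inhibitors and inducers. So did 7 of 26 ADAM and ADAMTS proteases, 14 of 19 cathepsins and cystatins and 22 of 33 matrix proteins. For the receptors, the AP-1 and ETS factors and the TGF-beta genes the counts were 12 of 20, 15 of 21 and 20 of 22. SERPINI1, neuroserpin, an inhibitor of tissue-type activator, rose most: 7.35, 7.20 and 7.20 in KD, 5.40, 5.49 and 5.41 in NC, a change of 1.82 (SE 0.081, limma adjusted p = 1.56e-06) from its single probe set. LRP1, the endocytic receptor that clears activator and serpin complexes, rose by 0.95, though 2 of its 4 probe sets did not pass. MRC2, a collagen-binding receptor that associates with PLAUR, rose by 0.81 with 4 of 4 probe sets called. SPINT2, a Kunitz-type inhibitor of membrane serine proteases, fell to 10.65, 10.70 and 10.62 in KD, against 11.84, 11.88 and 11.83 in NC (-1.20, limma adjusted p = 5.89e-06). ENO1, a glycolytic enzyme that can bind plasminogen at the cell surface, fell by 0.40; with cross-hybridising probe sets left out the falls numbered 1.

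Of 19 metalloproteases other than the 3 members 2 (10.5%) were higher, 0 lower and 17 not called, with a median of -0.034; both shares were below those of all genes. Without NC replicate 1 the number lower was 1. MMP7, matrilysin, an epithelial enzyme, read 10.85, 10.86 and 10.83 in KD and 10.47, 10.28 and 10.30 in NC (0.50, limma adjusted p = 0.00139). Of its 4 probe sets 3 were called higher, and the lowest change was -0.065. MMP28, epilysin, rose by 0.33, and by 1.23 on its other probe set. Of 13 other inhibitors and inducers 2 (15.4%) were higher, a share near that of all genes, and 1 (7.69%) lower. The rises were TFPI2, a Kunitz-type inhibitor (0.46, 2 of 3 probe sets called), and RECK, a membrane-anchored metalloprotease inhibitor (0.59). The fall was the proteoglycan SPOCK1 (-1.01). RECK, which is dim, is named because the count is small. The rises numbered 4 with array weights and 1 with the mean of probe sets, without cross-hybridising ones or without dim genes, and the falls 2 without NC replicate 1, with the mean of probe sets or without dim genes.

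Of 26 ADAM and ADAMTS proteases 4 (15.4%) were higher, near the share of all genes, and 1 (3.85%) lower, with a median of -0.043. The sheddases ADAM10 (0.68, 3 of 4 probe sets called) and ADAM17 (0.27) rose and ADAMTS9 fell (-0.83). The dim ADAM23 (0.61) and ADAMTS13 (0.45) complete the count and were named after their values were seen. ADAM17 lost its call with median centring, with the mean of probe sets and without any 1 of the KD replicates or NC replicate 3 (adjusted p between 0.0572 and 0.236). The rises numbered 2 without KD replicate 1, with the mean of probe sets or without dim genes, and the falls 2 without NC replicate 2 or with array weights. Cathepsins and cystatins, the lysosomal proteases and their inhibitors, had 10 of 19 higher (52.6%, against 17.6% of all genes) and 1 lower (5.26%, against 15.9%), with a median of 0.45. CTSB, a cysteine protease that can activate pro-urokinase, read 12.72, 12.78 and 12.73 in KD and 11.71, 11.61 and 11.69 in NC (1.07, limma adjusted p = 1.12e-05). The aspartic protease CTSD rose by 0.98 and CTSO, which is dim (mean 6.03), by 0.93, while CTSV fell (-0.63). Of the 2 CTSO probe sets 1 did not pass (0.27). With the mean of probe sets the falls numbered 2.

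Of 33 matrix proteins that these enzymes cut or bind, 19 were higher in KD (57.6%, against 17.6% of all genes) and 1 lower (3.03%, against 15.9%), with a median of 0.45. VTN, vitronectin, which binds PLAUR and integrins, read 9.27, 9.30 and 9.49 in KD and 6.68, 6.37 and 6.84 in NC (2.72, limma adjusted p = 1.71e-06). LAMB3 (1.97) and LAMB2 (1.47), both laminin chains, rose too. LAMC1, the 1 fall, changed by -0.29, but its 5 probe sets ran from -0.29 to 1.04; it was higher by 1.04 with cross-hybridising probe sets left out (adjusted p = 3.46e-05) and by 0.10 with the mean of probe sets. Leaving out KD replicate 2 or 3, or NC replicate 1 or 3, brought the falls to 0, and they numbered 2 with the mean of probe sets.

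Among 20 integrins and other receptors known to work beside PLAUR, 5 (25%) were higher and 3 (15%) lower, against 17.6% and 15.9% of all genes; the share lower was near that of all genes. ITGB4, the laminin-binding beta chain of hemidesmosomes, read 9.37, 9.56 and 9.59 in KD and 7.28, 7.54 and 7.56 in NC (2.04, limma adjusted p = 2.36e-06), with 8 of 8 probe sets higher. EGFR rose by 0.67 and ITGA6, the partner chain of ITGB4, by 0.58, while CAV1, caveolin, fell (-0.52). Of 8 EGFR probe sets 6 were called higher, and the 8 ran from -0.18 to 0.94. ITGA5, of the fibronectin receptor, changed by -0.66. Neither ITGA6 nor ITGA5 passed once cross-hybridising probe sets were left out (adjusted p of 0.355 and 0.0965). ITGB5 (0.54), IGF2R (0.41) and the dim ITGAM (-0.40) complete the counts and were named after their values were seen. Without NC replicate 2 the falls numbered 5.

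**Figure D4:**
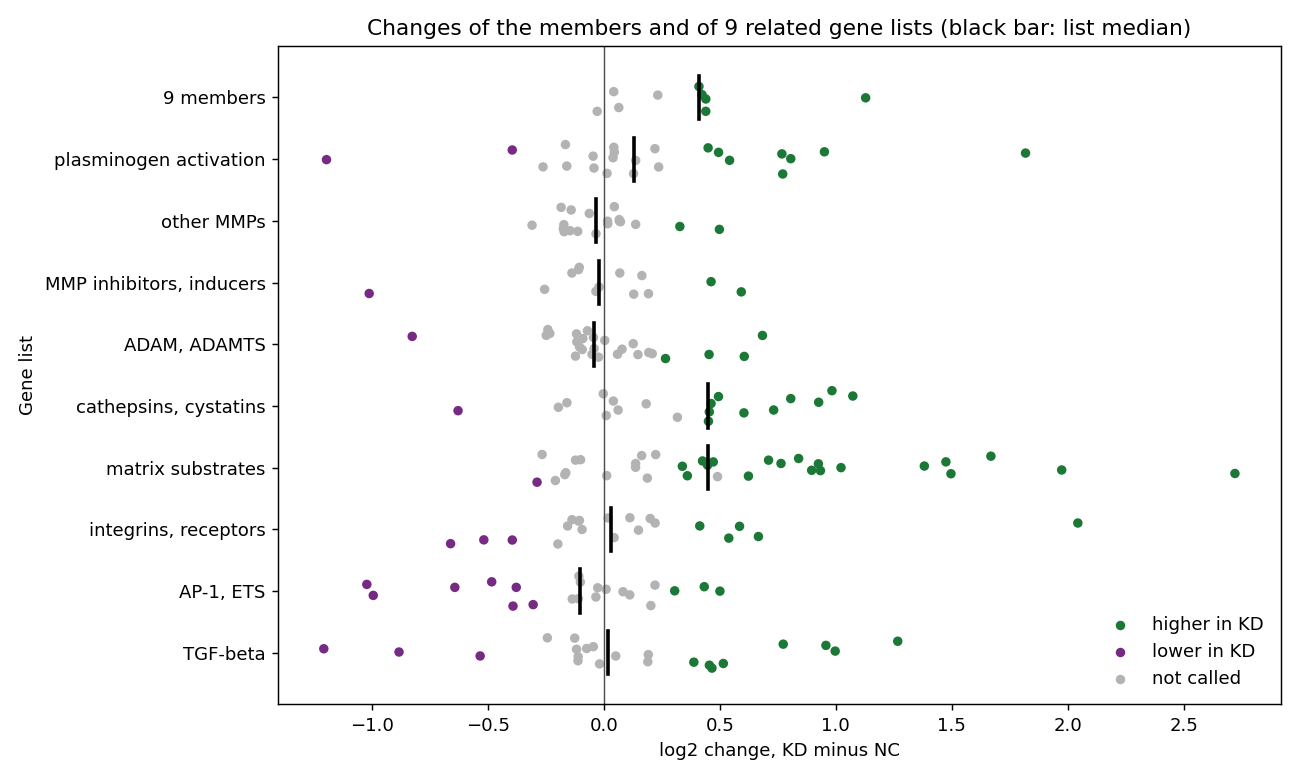
Log2 change (KD minus NC) of the 9 members and of the measured genes of 9 related lists, 1 point per gene, coloured by its call, with a black bar at each median. The medians of the cathepsin and matrix lists (0.45 each) lie close to that of the members (0.41), and that of the other metalloproteases near 0.

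Transcription factors of the AP-1 and ETS families, which bind control regions of PLAU and MMP genes, had 3 of 21 genes higher (14.3%) and 7 lower (33.3%), against 17.6% and 15.9% of all genes, and a median of -0.10. ETS1 read 7.25, 7.09 and 7.12 in KD and 8.18, 8.03 and 8.23 in NC (-0.99, limma adjusted p = 3.93e-05), though 2 of its 3 probe sets did not pass. JUND changed by -0.48, and ETV4 (0.50), BATF3 (0.43) and ELF3 (0.31) were higher. ELK3 changed by -1.02 on its chosen probe set and by 0.45 on the other, both called, so that its direction turned with cross-hybridising probe sets left out. In that setting the falls numbered 4. ELF3 lost its call without KD replicate 1, without NC replicate 1 and with the mean of probe sets (adjusted p of 0.0669, 0.0564 and 0.178).

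TGF-beta, a regulator of activator and TIMP genes in many cells, had 8 of 22 genes of its signalling and targets higher (36.4%) and 3 lower (13.6%), against 17.6% and 15.9% of all genes, with a median of 0.016. LTBP1, which stores latent TGF-beta in the matrix, rose by 1.27, the ubiquitin ligase SMURF2 by 0.997 and the receptor TGFBR2 by 0.96. Of 3 SMURF2 probe sets 1 did not pass, and the lowest change was 0.14. The secreted TGFBI read 10.89, 11.03 and 11.02 in KD and 12.15, 12.25 and 12.16 in NC (-1.21, limma adjusted p = 8.90e-06), and CCN2 (-0.88) and BAMBI (-0.53) fell as well. With the mean of probe sets the falls numbered 5.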

How the data were processed

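The authors deposited 1 table, with 49395 probe sets on 6 arrays, used here as log2 values; the log base was taken from their range (2.05 to 14.3), and the summarisation and normalization are not given in the sources used here. Biotinylated cRNA was prepared from total RNA, per the labels' protocols. A change is read against the bulk of genes, and the array medians ran from 5.49 to 5.55. Samples were grouped by title; the source names of NC replicates 2 and 3 carry other cell line numbers, but their characteristics give A549.

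Each of 18244 genes was represented by the highest of its probe sets in mean signal among those annotated with a single symbol, without filtering dim genes. The test was limma 3.58.1 (R 4.3.3; lmFit, eBayes, two-sided, group as the only term, threshold 0.05). A second fit covered the 49293 probe sets that are not controls. Both fits were tested on simulated data. The number of arrays limits the precision. Same-numbered KD and NC arrays correlated in their deviations at 0.25, 0.26 and -0.096, so the numbers were not taken to pair samples.

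The members and lists were chosen with earlier results of these data known. Named genes are the members, MRPL35, per list up to 3 rises and 3 falls that were largest among called genes with separate groups and the higher mean at or above 6.21, and the 3 genes nearest to the member that rose most. No member fell. Protein sequences were not used here. Figures were drawn with matplotlib 3.10.9.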

Additional observations from a re-analysis of the deposited data

How the results depend on the processing

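Over 14 alternatives (median centring, quantile normalization, array weights, a robust fit with trend, the replicate block, averaged probe sets, no x and s probe sets, no genes below the 40th percentile, and each array left out) 115 of 124 values for the 9 members kept their direction and side of the threshold. The members called higher numbered 5 without any 1 array, and 1, PLAU, with a fold of at least 2 required as well. The TIMP2 estimate ran from 0.40 to 1.34 over the alternatives. Its highest value came without x and s probe sets, where PLAU stood at 1.13. Genes called numbered 6110, and 4955 to 6746 without any 1 array; with the replicate block they numbered 6276, with 5 members higher and 0 lower, so the block changed no call on a member gene, and it added 1 dim SERPINE2 probe set (adjusted p = 0.0353).

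Member probe sets called higher numbered 18, but 11 with x and s probe sets left out, which leaves fewer to call, and those called lower 0 to 1 without any 1 array. TIMP1 missed the threshold at 0.19 with the mean of probe sets, and MMP2 passed at 0.30 with array weights. Signs turned only for values that were not called in the main analysis, apart from LAMC1 (0.10 with the mean of probe sets, 1.04 without x and s probe sets) and ELK3 (0.45 without the latter). PLAT was 0.17 with the mean of probe sets and -0.12 to 0.039 without any 1 array. MMP1 was -0.011 with the mean of probe sets, -0.064 without x and s probe sets and -0.023 to 0.085 without any 1 array, and MMP14 -0.031 to 0.16 without any 1 array. Values without KD replicate 3 and NC replicate 1 were -0.023 and -0.017 for MMP1, and that without KD replicate 2 was 0.039 for PLAT. A PLAT probe set came to -0.0010 without KD replicate 1 and -0.0053 without NC replicate 3, within -0.0053 to 0.081. An MMP14 probe set came to 0.073 with array weights, 0.10 without KD replicate 1 and 0.065 without NC replicate 2, within -0.13 to 0.10. Apart from the fewer probe sets noted, the cause was not tested. The alternatives for linear values did not apply. Signal over background was not measured, which limits what can be said of PLAT, MMP1, MMP2 and MMP14.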
